A study of Homo sapiens with 4 samples.

Results

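Transcripts of 9 genes of the JAK-STAT pathway were followed in RPMI 8226, an established human multiple myeloma line, after an antisense oligonucleotide against the long noncoding RNA LINC01432. The 9 genes were chosen by symbol: the kinases JAK1, JAK2 and TYK2, the transcription factors STAT2, STAT3, STAT5A and STAT6, and the inhibitors SOCS1 and SOCS3. Each symbol matched 1 of the 78932 gene rows of the deposited count table, and all 9 passed the filter on low counts. RNA-seq was done on 2 libraries of cells given a control locked nucleic acid oligonucleotide (LNA, labelled ASO1) and 2 libraries of cells given an LNA against LINC01432 (labelled ASO3, at 50 nM). Both groups were the same unmodified line, transfected for 72 h, and no dose is stated for the control LNA. The sources name poly(A) selection in one place and removal of ribosomal RNA in another. Nothing states that libraries of a group were grown separately. The p-values set the difference between groups against the variation between these libraries, and that variation may be technical.

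The cytokine and interferon receptors that rely on JAK kinases have no kinase activity of their own. Their cytoplasmic tails hold JAK kinases, which phosphorylate the receptor and then the STAT proteins, and the phosphorylated STATs pair and enter the nucleus to bind DNA. Interferon-γ and interleukin 6 type signals give STAT pairs that bind GAS elements, while type I and type III interferons give ISGF3, a complex that contains STAT2 and IRF9 and binds ISRE elements. SOCS1 and SOCS3 are induced by this signalling and act back on it by inhibiting the JAKs. In myeloma, interleukin 6 acting through JAK1 and STAT3 is a known growth and survival signal. RNA counts do not report phosphorylation, which is how JAKs and STATs are switched on.

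The libraries held 20873393 to 29161298 gene counts, and 3 counts were worth 0.103 to 0.140 CPM (counts per 1000000 gene counts, scaled between libraries by TMM). LINC01432 itself was measured at 20.5 and 17.9 CPM in the control libraries and at 8.997 and 9.90 CPM in the LINC01432 LNA libraries, 0.492 times the control level (edgeR adjusted p = 0.000228). Plasma cell and myeloma markers summed to 3045 and 3232 CPM in the controls and to 2644 and 2999 CPM with LINC01432 LNA, with 9 of the 10 genes tested and CD27 at 1 to 4 counts. Of the 9, CD38 was called higher (1.65-fold) and TNFRSF17 and XBP1 lower (0.691 and 0.782 times the control level, edgeR adjusted p = 0.0158 or less for the 3). SDC1 was called lower with GC correction (log2 fold change -0.32, edgeR adjusted p = 0.0282), against -0.14 and no call without it. T and NK cell markers summed to 1.34 to 2.65 CPM and myeloid markers to 3.42 to 5.03 CPM, with LYZ and S100A8 at 0 counts in each library. The fibroblast and endothelial list summed to 4.57 and 4.77 CPM in the controls and to 6.29 and 7.65 CPM with LINC01432 LNA, where COL1A1 was called higher, though not with GC correction. The epithelial list, nearly all of it EPCAM and KRT18, summed to 118 and 114 CPM in the controls and to 99.8 and 99.2 CPM with LINC01432 LNA, where KRT18 was called lower only with GC correction. What share these lists have in the values of the JAK-STAT genes was not tested. In bulk RNA, fewer cells of a type and less RNA per cell cannot be told apart.

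Because SOCS1 showed the largest change of the 9 genes, the 250 bases before its RefSeq start (GRCh38.p14, chr16:11256205-11256454, minus strand) are printed first. Promoter stretches of other pathway genes follow, CXCL10 and GBP1 with an ISRE core as in SOCS1, and IRF1 and CISH with GAS elements, which the SOCS1 stretch lacks. Capitals mark an ISRE core, spelled GAAANNGAAA or on the other strand TTTCNNTTTC, or a GAS element, spelled TTCNNNGAA, which reads the same on both strands.
SOCS1: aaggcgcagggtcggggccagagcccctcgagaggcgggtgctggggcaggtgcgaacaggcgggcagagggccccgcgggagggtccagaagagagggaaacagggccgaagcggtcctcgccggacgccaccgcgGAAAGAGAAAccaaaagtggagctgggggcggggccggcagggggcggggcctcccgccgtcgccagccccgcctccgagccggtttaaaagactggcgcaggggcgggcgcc
CXCL10: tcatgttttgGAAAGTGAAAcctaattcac
GBP1: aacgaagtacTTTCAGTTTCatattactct
IRF1: acagcctgatTTCCCCGAAatgacggcacg
CISH: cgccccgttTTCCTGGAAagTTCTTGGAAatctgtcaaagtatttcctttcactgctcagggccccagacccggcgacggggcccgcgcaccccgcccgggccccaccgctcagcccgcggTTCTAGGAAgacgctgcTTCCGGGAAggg

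The CXCL10 stretch is chr4:76023699-76023728, that of GBP1 chr1:89065316-89065345, that of IRF1 chr5:132490878-132490907 and that of CISH chr3:50611875-50612024, with the minus strand printed for each. The SOCS1 window held 1 ISRE core, whose first base lay 113 bases before the start. RefSeq windows of 300 bases (250 before to 50 after a start) were matched for all 9 genes, 17 windows in all. None of the 17 held a GAS element, and the SOCS1 window was the 1 window with an ISRE core. Over all 35116 windows, 7.66% held a GAS element and 3.57% an ISRE core. A match is a string of letters in these windows and does not show binding. SOCS3, which has windows at 2 starts, held neither string in either window.

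Of the 9 genes, 2 rose with LINC01432 LNA, SOCS1 and SOCS3, 0 fell and 7 did not pass (quasi-likelihood test of edgeR, p under 0.05 after adjustment by Benjamini-Hochberg). Over the 18680 genes tested, 11.9% were called, 7.5% as higher and 4.37% as lower. The fitted changes of the kinases and STATs lay between 0.895 and 1.26 times the control level. The median log2 fold change over all 9 genes was 0.11, beside 0.01 over all genes tested. In 5 of the 9 (JAK1, TYK2, STAT2, SOCS1 and SOCS3) both LINC01432 LNA libraries lay outside the range of the controls, which was so for 54.1% of all genes tested. That share is near the background and says nothing particular of the 9 genes.

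**Figure D1:**
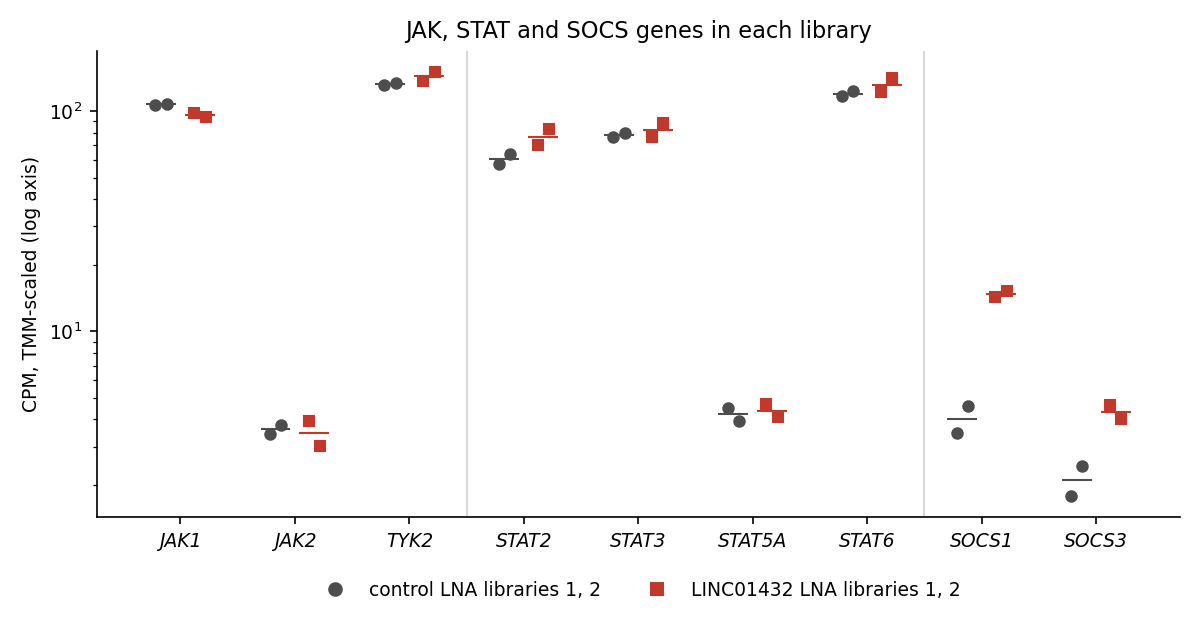
CPM of each of the 9 genes (log axis) in the 2 control LNA libraries (grey circles) and the 2 LINC01432 LNA libraries (red squares), with group means as lines. SOCS1 stands at 3.47 and 4.56 CPM in the controls and at 14.4 and 15.2 CPM with LINC01432 LNA, while the JAK2 and STAT5A points of both groups lie among each other.

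SOCS1 (ENSG00000185338, chromosome 16 from 11254405 to 11256200 in GRCh38) encodes a short protein that binds JAK kinase domains and blocks them. It had 101 and 112 counts in control libraries 1 and 2 and 308 and 384 counts in LINC01432 LNA libraries 1 and 2. As CPM these were 3.47 and 4.56 against 14.4 and 15.2, so both treated libraries stood well clear of both controls. The mean rose from 4.02 ± 0.775 to 14.8 ± 0.605 CPM (SD, n = 2 per group). The fold fitted by edgeR, as for every fold given here, was 3.71 (log2 fold change 1.89, SE 0.14, edgeR adjusted p = 2.48e-05). SOCS1 kept its call without each library in turn, with log2 fold changes of 1.68 to 2.08. Its exons are 68.7% G and C, which puts it in decile 10, the highest, of the genes tested by GC content. In that decile the median log2 fold change was 0.37 and 35.2% of genes were called higher. With a correction for GC content the log2 fold change of SOCS1 was 1.21 (edgeR adjusted p = 0.000393). The part of GC content in its rise beyond that correction was not tested.

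SOCS3 (ENSG00000184557, chromosome 17 from 78356778 to 78360077) encodes the inhibitor that docks on the interleukin 6 receptor chain gp130 and on JAKs, and its gene is a classical STAT3 target. Its counts were 52 and 60 in the controls and 99 and 101 with LINC01432 LNA. In CPM it stood at 1.79 and 2.45 against 4.61 and 4.001, with no overlap of the groups and a low level throughout. The mean rose from 2.12 ± 0.466 to 4.31 ± 0.434 CPM (SD, n = 2), with a fitted fold of 2.05 (log2 fold change 1.03, SE 0.21, edgeR adjusted p = 0.00915). The call was lost without control library 1 (log2 fold change 0.79, edgeR adjusted p = 0.0922). SOCS3 exons are 59.99% G and C, and with the GC correction the log2 fold change was 0.86 (edgeR adjusted p = 0.0344).

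The 3 kinases did not pass. JAK1, which serves interferon, interleukin 6 and common γ chain receptors, was measured at 107.3 and 108.0 CPM in the controls and at 98.7 and 94.0 CPM with LINC01432 LNA. Both treated libraries were below both controls, but the log2 fold change of -0.16 (95% interval -0.33 to 0.01) did not pass (edgeR adjusted p = 0.222). TYK2, the partner of JAK1 at type I interferon and interleukin 10 receptors, stood at 132 and 134 CPM against 138 and 151 CPM. Its treated libraries were both the higher, with a log2 fold change of 0.11 (interval -0.06 to 0.29, edgeR adjusted p = 0.422), and -0.08 after GC correction. JAK2, the kinase of interferon-γ and hematopoietic growth factor receptors, had 76 to 100 counts per library. It stood at 3.43 and 3.75 CPM against 3.92 and 3.01 CPM, the control values lying within the treated range. The log2 fold change of JAK2 was -0.06 with a wide interval of -0.48 to 0.37.

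STAT2, the STAT that ISGF3 needs for interferon signalling, came closest to the threshold among the 7 genes that did not pass. It was measured at 57.8 and 64.2 CPM in the controls and at 70.0 and 83.0 CPM with LINC01432 LNA, with both treated libraries the higher. The mean was 61.0 ± 4.54 against 76.5 ± 9.19 CPM (SD, n = 2), so the log2 fold change was 0.33 (SE 0.10, 95% interval 0.11 to 0.54, edgeR adjusted p = 0.0513). STAT2 was called higher in 6 of 12 alternative fits, among them GC correction (log2 fold change 0.33, edgeR adjusted p = 0.0426) and no filter on low counts (0.31, adjusted p = 0.0220). The 6 included both fits without a LINC01432 LNA library, with log2 fold changes of 0.43 without library 1 and 0.18 without library 2. In those fits the spread comes from the controls alone. STAT2 was not called by DESeq2 (0.30, DESeq2 adjusted p = 0.135), by limma-voom (0.33, limma-voom adjusted p = 0.0523) or with the 2 other scalings. Nor was it called without control library 1 (log2 fold change 0.24) or control library 2 (0.39).

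STAT3, the transducer of interleukin 6 signals, stood at 76.6 and 79.3 CPM in the controls and at 76.7 and 88.1 CPM with LINC01432 LNA. The first treated library lay at the control level and the second above it, for a log2 fold change of 0.08 (interval -0.11 to 0.27, edgeR adjusted p = 0.629). STAT6, the transducer of interleukin 4 and 13 signals, stood at 117 and 123 CPM against 122 and 142 CPM. Its groups overlapped in the same way, with a log2 fold change of 0.14 (interval -0.06 to 0.34, edgeR adjusted p = 0.385). STAT5A, which with STAT5B carries growth factor and interleukin 2 family signals, had 96 to 131 counts. It stood at 4.50 and 3.91 CPM against 4.66 and 4.08 CPM. The values of the groups interleaved, for a log2 fold change of 0.05 (interval -0.33 to 0.42, edgeR adjusted p = 0.906). STAT5A and STAT5B are near-identical copies in much of their coding sequence, so reads may have been assigned unequally between them. TYK2, STAT2, STAT3 and STAT6 were each higher in LINC01432 LNA library 2 than in library 1, and without library 1 each was called higher and JAK1 lower (edgeR adjusted p = 0.0452 or less). In that fit the spread comes from the 2 controls, and the lone treated library is assumed to vary as they do. On average over genes, the variance between the 2 controls was 3.85 times that of counting alone. Between the 2 LINC01432 LNA libraries it was 12.4 times, so the treated pair varied more than that fit assumes. With 2 libraries a group, the smallest two-sided p of an exact permutation test on 1 gene is 0.333, and each call depends on a spread that edgeR estimates jointly over genes.

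**Figure D2:**
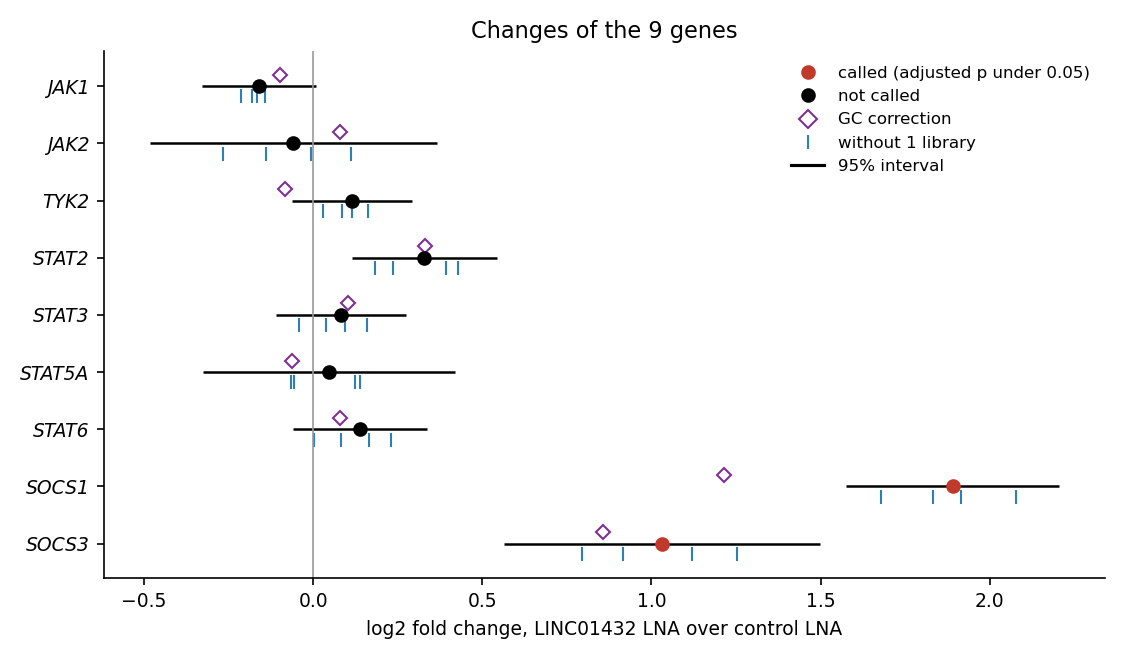
Log2 fold change of each gene, LINC01432 LNA over control LNA, with its 95% interval (line), the value after GC correction (open diamond) and the 4 values without 1 library (blue ticks). Red marks the 2 called genes: SOCS1 at 1.89 moves to 1.21 with GC correction, SOCS3 moves from 1.03 to 0.86, and the other 7 lie between -0.16 and 0.33.

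To compare levels between genes, CPM were divided by the length of each gene's merged exons in kilobases. In the control libraries TYK2 had the highest level of the 9, 19.7 ± 0.229 CPM per kb (SD, n = 2), followed by JAK1 with 17.0 ± 0.0757, STAT6 with 16.4 ± 0.613, STAT2 with 9.98 ± 0.744 and STAT3 with 8.85 ± 0.216 CPM per kb. SOCS1 was next at 2.24 ± 0.432 CPM per kb. SOCS3 with 0.774 ± 0.171, STAT5A with 0.731 ± 0.0721 and JAK2 with 0.582 ± 0.0361 CPM per kb formed the low end, where the control values of SOCS3 and STAT5A overlapped. With LINC01432 LNA the level of SOCS1 was 8.23 ± 0.337 CPM per kb, just under that of STAT3 at 9.35 ± 0.920, and SOCS3 at 1.58 ± 0.159 stood clear of STAT5A at 0.760 ± 0.0714. JAK1 and STAT6 exchanged ranks 2 and 3, at 15.3 ± 0.523 and 18.1 ± 1.99 CPM per kb, and the other 7 kept theirs.

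**Figure D3:**
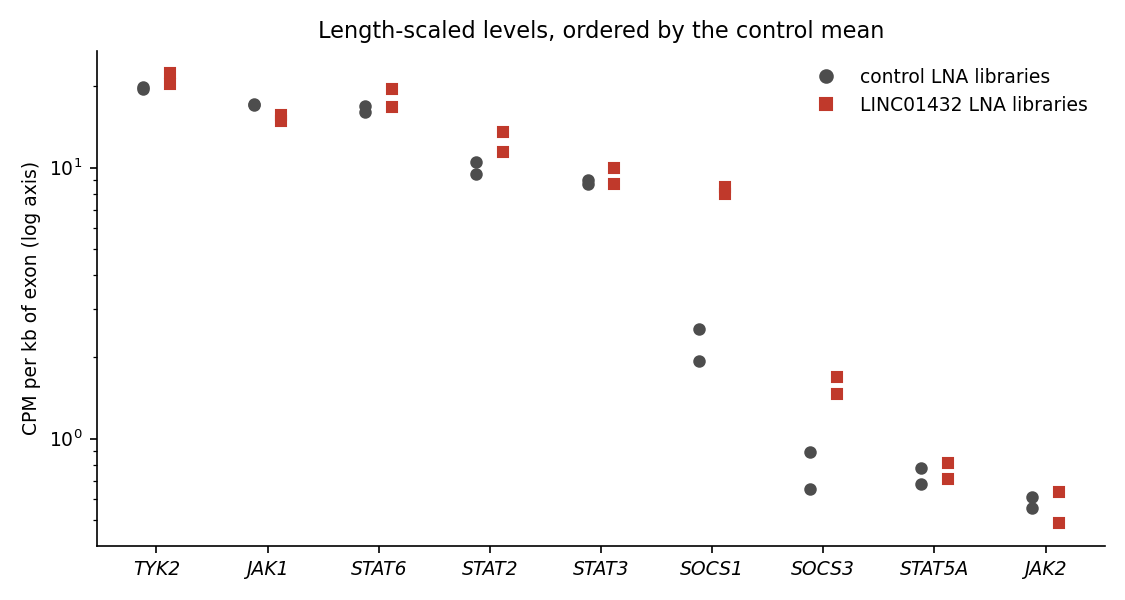
Level per kilobase of exon (CPM per kb, log axis) of the 9 genes in each control LNA library (grey circles) and each LINC01432 LNA library (red squares), ordered by the control mean. SOCS1 rises from 2.24 to 8.23 CPM per kb on average and comes within reach of STAT3, while JAK2 and STAT5A stay under 1 CPM per kb in all 4 libraries.

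GC content moved with the fold changes over the whole table. When tested genes were cut into 10 deciles by the GC content of their exons, the median log2 fold change was -0.14 in decile 1, the lowest, and 0.37 in decile 10. JAK2 (40.8% G and C) and JAK1 (47.2%) lay in deciles 2 and 5, STAT2 and STAT3 in decile 6, STAT6 in decile 8, TYK2, STAT5A and SOCS3 in decile 9 and SOCS1 in decile 10. In decile 9 the median was 0.14 and the upper quartile 0.39, and in decile 10 the upper quartile was 0.66. SOCS3 and SOCS1 stood above the upper quartile of their deciles, and TYK2 and STAT5A stood below the median of theirs. With GC corrected, 3 of the 9 genes were called, SOCS1, SOCS3 and STAT2, each as higher, beside 10.2% of all genes tested in that fit.

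**Figure D4:**
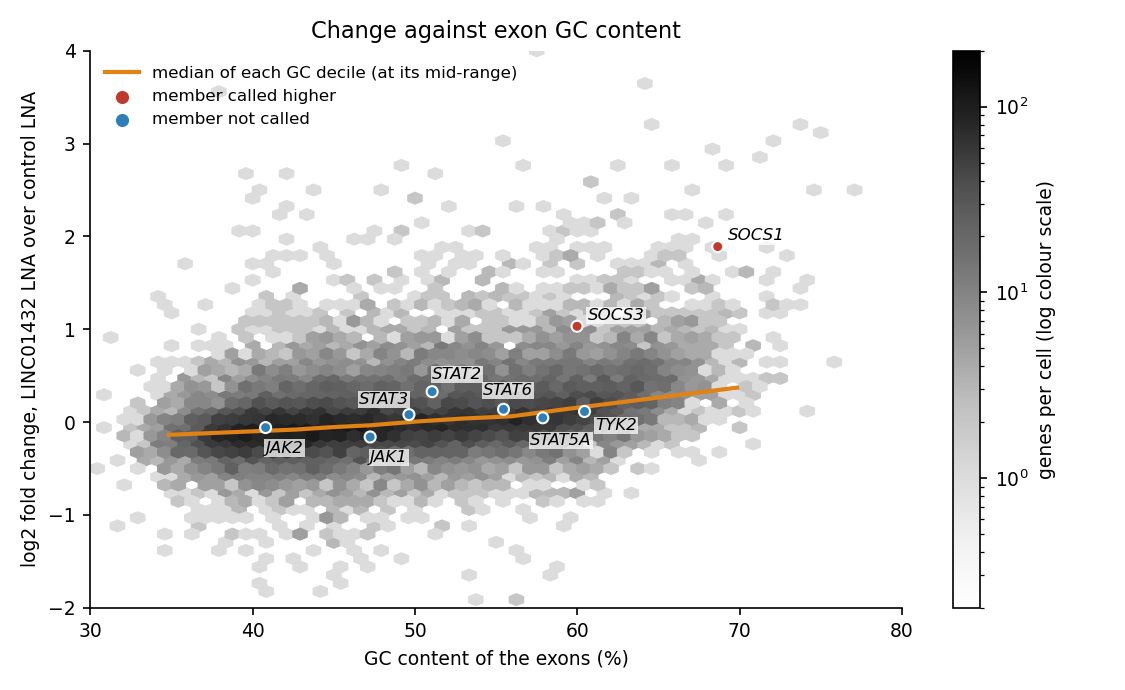
Log2 fold change (LINC01432 LNA over control LNA) against the GC content of a gene's exons in percent, for 17060 tested genes as grey cells shaded by number on a log scale, of which 5 fall outside the axes. The orange line joins the medians of the 10 deciles, from -0.14 to 0.37, and SOCS1 and SOCS3 (red) lie well above it while the other 7 genes (blue) lie closer to it.

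Other genes of the pathway were taken from 9 lists, which held 120 different genes, 83 of them tested. Of these 83, 30 rose, 0 fell and 53 did not pass. Over all genes tested 7.5% were called higher and 4.37% lower. The median log2 fold change of the 83 was 0.31, beside 0.01 over all genes tested. The lists were drawn up with earlier results of these data known, so the counts are a description. After GC correction 27 were called higher and 3 lower, beside 10.2% called in either direction over all genes.

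Among 3 listed JAK and STAT genes outside the 9, 1 rose and 0 fell. JAK3, the kinase of the common γ chain, rose from 1.75 and 2.28 CPM to 5.17 and 4.001 CPM, 2.28-fold (edgeR adjusted p = 0.00498), with no overlap between groups. STAT4 and STAT5B, with log2 fold changes of 0.28 and -0.17, did not pass. Per kilobase of exon STAT2 had 9.98 CPM in the controls and 12.5 with LINC01432 LNA, against 1.03 and 1.32 for IRF9, the DNA-binding partner in ISGF3. IRF9, of whose exonic bases 48.4% overlap another gene, did not pass (log2 fold change 0.35, edgeR adjusted p = 0.242).

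None of the 6 CIS and SOCS genes outside the 9 was called by edgeR (SOCS2, SOCS4, SOCS5, SOCS6, SOCS7 and CISH, log2 fold changes -0.20 to 0.44). An unadjusted p under 0.05 was reached by 2 of them, SOCS2 and SOCS6. DESeq2 called 0 of the 6. Without LINC01432 LNA library 1 some were called, more of them lower than higher. CISH, an inhibitor induced by STAT5, stood at 35.5 and 33.9 CPM in the controls and at 36.6 and 37.3 CPM with LINC01432 LNA. Its promoter stretch printed above holds 4 GAS elements. Whether SOCS1 or SOCS3 changed more than these genes was not tested.

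Of 11 tested restrainers of the pathway outside the SOCS family, 3 rose, 0 fell and 8 did not pass, the list median being -0.07 on the log2 scale. USP18, the protease that removes ISG15 and also restrains the type I interferon receptor, stood at 11.3 and 12.4 CPM against 27.9 and 37.6 CPM, 2.78-fold higher (edgeR adjusted p = 6.85e-05). SH2B3, an adaptor that dampens JAK2 signalling, rose 1.34-fold (adjusted p = 0.0128), and PIAS4, a SUMO ligase, 1.24-fold (adjusted p = 0.0355). With GC corrected, PIAS4 had a log2 fold change of 0.02 and was not called, while the phosphatase gene PTPN6 was called lower at -0.50, against -0.26 and no call without the correction. The phosphatase gene PTPN2 was called higher at 0.28 with the correction, against 0.15 and no call without it. SH2B3 and PIAS4 were not called by DESeq2 or without either control library.

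Of 21 tested receptor chains, 4 rose, 0 fell and 17 did not pass, and the list median was 0.25 on the log2 scale. The 4 were the interleukin receptor genes IL10RA (1.49-fold, edgeR adjusted p = 0.00209), IL2RG, the common γ chain that holds JAK3 (1.69-fold, 0.00387), IL21R (1.42-fold, 0.00515) and IL4R (1.49-fold, 0.0375). Of IL2RG, 50.8% of the exonic bases overlap another gene, and of IL21R 23.3%. IL4R lost its call with GC correction, by DESeq2, with library totals as scaling and without either control library or LINC01432 LNA library 2, and IL21R without control library 2. The interleukin 6 receptor genes IL6R and IL6ST did not pass (log2 fold changes -0.03 and 0.13), though IL6ST was called higher with GC correction (0.32, edgeR adjusted p = 0.0155). Nor did the interferon receptor genes IFNAR1, IFNAR2, IFNGR1 and IFNGR2 pass (-0.27, -0.32, -0.01 and 0.05).

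Of 10 tested ligands, 2 rose, 0 fell and 8 did not pass, all at low counts, and the list median was 0.87 on the log2 scale. IFNL1, a type III interferon, had 9 and 10 counts in the controls and 40 and 73 with LINC01432 LNA (6.69-fold, edgeR adjusted p = 0.000735). IFNB1, a type I interferon, had 2 and 4 counts against 15 and 12 (log2 fold change 2.32, edgeR adjusted p = 0.0250). Its call was lost without either control library and without LINC01432 LNA library 1, and the log2 fold change was 2.98 without control library 2. IFNG had 18 and 17 counts against 9 and 6 and did not pass (adjusted p = 0.190).

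Targets of the STATs were split by a factor assigned to each gene. That assignment was not tested in these data, and the targets share regulators. Of 12 interferon targets known to be driven through ISRE or GAS elements, 10 rose, 0 fell and 2 did not pass. DESeq2 called 9 of the 12, and with GC correction 10 were called higher. Some of the 10 calls were lost without control library 1 or without control library 2. The list median was 0.77 on the log2 scale. The 6 with the smallest p were the chemokine genes CXCL10 and CXCL9, the HLA class II activator CIITA, the GTPase gene GBP1, the peptide transporter gene TAP1 and the transcription factor gene IRF1. They rose 11.8-fold, 5.42-fold, 2.93-fold, 4.74-fold, 1.95-fold and 1.496-fold (edgeR adjusted p = 0.000703 or less). Both CXCL10 and GBP1 hold an ISRE core like that of SOCS1, and IRF1 a GAS element, in the stretches printed above. Matches also lay in windows of CXCL9, TAP1 and ICAM1, which were called, and of WARS1 and IRF9, which did not pass. No match was found for CIITA, IRF8, GBP2 or PSMB9, which were called. Whether the strings go with the calls in this list was not tested. Of CIITA, 23.4% of the exonic bases overlap other genes, and of IRF1 22.003%.

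Of 11 tested STAT3 targets, 6 rose, 0 fell and 5 did not pass, with 0.30 as the list median. In this list 4 were called with median of ratios as scaling and 3 with library totals as scaling. Without a filter on low counts 4 were called, and by limma-voom 5. JUNB, an AP-1 subunit, rose 2.19-fold and BCL3, an IκB family member, 2.26-fold (edgeR adjusted p = 2.78e-05 and 0.000201). GC correction took JUNB from 1.13 to 0.69 and BCL3 from 1.18 to 0.77 on the log2 scale. VEGFA, CCND1, MCL1 and FOS rose 1.26-fold, 1.23-fold, 1.21-fold and 1.34-fold (edgeR adjusted p = 0.0231 to 0.0496). Each of these last 4 lost its call by DESeq2 and without either control library, and VEGFA and FOS also with GC correction. BCL2L1, a survival gene of the BCL2 family, was called lower with GC correction (-0.34, edgeR adjusted p = 0.00871), against -0.25 and no call without it. MYC, at 989 and 996 CPM against 1049 and 1058 CPM, did not pass (log2 fold change 0.09). Of 7 tested STAT5 targets, EGR1, BCL2 and PIM2 rose 2.75-fold, 1.29-fold and 1.35-fold (edgeR adjusted p = 0.000223, 0.0212 and 0.0115), 0 fell and 4 did not pass, with 0.36 as the list median. BCL2 and PIM2 were not called without either control library. Of 3 tested STAT6 targets BATF rose 1.81-fold (adjusted p = 0.0300), FCER2 and CCL22 had log2 fold changes of -0.53 and -0.43 and did not pass, and the median was -0.43. FCER2 was called lower with GC correction (-0.65, edgeR adjusted p = 0.0424). BATF lost its call with GC correction, by DESeq2, with library totals as scaling and without control library 1.

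**Figure D5:**
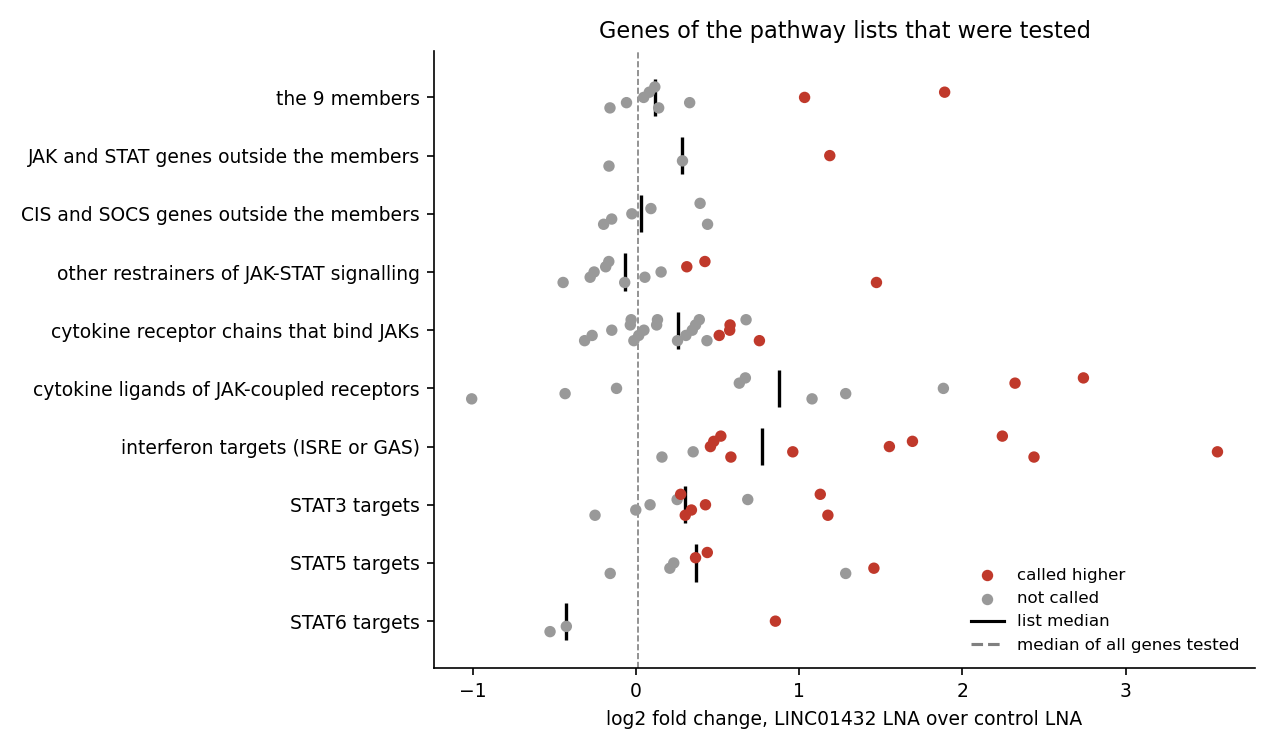
Log2 fold change (LINC01432 LNA over control LNA) of the tested genes of the 9 lists and of the 9 genes themselves, 1 point a gene, red where called higher and grey where not called, with the list median as a bar and the median of all genes tested (0.01) as a dashed line. The bars lie at 0.87 for the low-count ligands, at 0.77 for the interferon targets and at 0.11 for the 9 genes, where SOCS1 and SOCS3 stand apart from the rest.

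The 3 tested genes with the values most like those of SOCS1 were HELZ2, H2AC25 and CLDN3, found among genes with a symbol and a mean of at least 5 CPM by the smallest distance between centred log2 CPM over the 4 libraries. Their log2 fold changes were 1.81, 1.92 and 1.80, at distances of 0.11, 0.13 and 0.14 log2 units. With GC correction they were 1.32, 1.82 and 1.09, beside 1.21 for SOCS1. Like changes without the correction follow from the rule that picked the genes. With 4 libraries this likeness is a description of these values.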

How the data were processed

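The values were deposited by the authors as whole-number counts per gene for 4 libraries. Tools named in the submitters' processing notes are bcl2fastq, Salmon 1.10.0, STAR 2.7.11b and featureCounts 2.0.8, and the build named there is GRCh38. Tool order, gene annotation and strand setting were not given by the sources used here, so overlapping or antisense genes cannot be told apart. The 97 rows of spike-in and transgene sequences were left out. Of 78932 Ensembl IDs, 61481 were given a symbol, and positions, exon length, GC content and overlap were taken from GENCODE 29.

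In R 4.3.3, edgeR 4.0.16 was run on the counts with TMM and no term but group, after filterByExpr with a minimum count of 10 and a minimum total of 15, and was tested on simulated data. Standard errors and intervals were derived from the F statistic. The members and lists were chosen with earlier results of these data known. A pathway gene is not reported here and was left out of the lists and their counts. Named were all members, LINC01432, the called genes of each list (at most 6, smallest p first) and the 3 genes nearest to SOCS1. Other names, and the motifs, were chosen after values were seen. Alternatives were 2 other scalings, no filter, DESeq2 1.42.0, limma-voom (limma 3.58.1), each library left out, a replicate block, and a GC correction (lowess, span 0.3) with and without the block. Promoter sequences are from RefSeq (GRCh38.p14). Figures were drawn with matplotlib 3.10.9.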

Additional observations from a re-analysis of the deposited data

How the results depend on the processing

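SOCS1 was called higher in all 12 alternative fits, with log2 fold changes of 1.21 to 2.08, and SOCS3 in 11 of 12. The number of members called was 2, and 1 to 7 when a library was left out. Without a library the log2 fold changes ranged from 0.79 to 1.25 for SOCS3, from 0.18 to 0.43 for STAT2, from -0.041 to 0.16 for STAT3, from -0.067 to 0.14 for STAT5A, from 0.0038 to 0.23 for STAT6, from 0.030 to 0.16 for TYK2, from -0.21 to -0.14 for JAK1 and from -0.27 to 0.11 for JAK2. STAT2 was called at 0.31 without a filter on low counts, at 0.32 with the replicate block, at 0.33 with GC correction and at 0.32 with both. With GC correction JAK2 changed sign to 0.080, TYK2 to -0.082 and STAT5A to -0.061, and with the block added to 0.082, -0.083 and -0.048, none of them called. Of the 6 other CIS and SOCS genes, of which 0 were called by edgeR on all 4 libraries without a block (2 at an unadjusted p under 0.05), the replicate block called 1 higher and the block with GC correction 2. For the SOCS1 and SOCS3 calls, the block and the scalings changed nothing.

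The count of all genes called was 2218. It was 1400 by DESeq2, 766 to 5228 when a library was left out, 3862 with the replicate block and 3736 with the block and GC correction. The share called as higher, 63.2%, was 73.9% and 75.5% without control library 1 and 2, and 50.4% and 44.0% without LINC01432 LNA library 1 and 2. Of the list genes 30 were called, and 16 to 46 when a library was left out. Of 27 genes, the named list genes and LINC01432 together, 15 kept their call in each fit that gave an adjusted p, 12 lost it in at least 1, and 0 changed sign. The cause of these shifts was not tested. The replicate numbers are shared names only: same-numbered libraries correlated at 0.13 in their deviations from the group means, and no source says that they were handled together. Low counts limit JAK2, STAT5A, SOCS3 and the ligands.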

Other observations

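Tested genes whose start lies within 250 kb of a member's start gave these values, to be read beside the 7.5% called higher over all genes tested. Around SOCS1 there were 4 such genes and 0 were called by edgeR at an adjusted p under 0.05. The nearest coding gene, RMI2, a DNA repair factor with its start 6.58 kb away, had a log2 fold change of 0.02 (adjusted p = 0.932). Around SOCS3 1 of 10 was called, TMC6 (0.32, adjusted p = 0.0230). Around TYK2 4 of 18 rose, including ICAM1 (0.48) and RAVER1 (0.98). Around STAT5A, which did not pass itself, 4 of 14 rose, including DHX58, an RNA sensor of the interferon response (1.33, edgeR adjusted p = 0.000172), and 1 of 16 rose around its neighbour STAT3. Around STAT2 1 of 21 rose, around STAT6 0 of 9, and around JAK1 and JAK2 0 of 3 each. None was called lower around any of the 9 genes, beside 4.37% called lower over all genes tested. These windows share genes where members lie close together.

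Promoter strings can be set beside the calls for the 11133 tested genes with a RefSeq window. Of the 451 genes with an ISRE core 81, or 17.96%, were called higher, against 9.13% of all 11133. Of the 935 genes with a GAS element 73, or 7.81%, were called higher. These shares are a description with no test, and the strings were chosen after the values of SOCS1 were seen.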
